A study of Mus musculus with 12 samples.

Results

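Notch signalling was followed through 9 of its genes, taken from the 14096 genes listed for glomeruli isolated from male eNOS-/- mice on the C57BL/6J background, which lack endothelial nitric oxide synthase. The 9 were every listed gene with one of these symbols: the receptors Notch1, Notch2, Notch3 and Notch4, the ligands Jag1 and Dll4, and the target genes Hes1, Hey1 and Heyl. All 9 were found, each once, and none was lost to a filter. The study had 12 mice in 4 groups of 3. The diabetic mice had received streptozotocin (STZ), 50 mg/kg a day for 5 days, at an age of 8 weeks, while the nondiabetic mice were given citrate buffer. Starting 10 weeks later, arctigenin (ATG), a lignan from burdock fruit, at 40 mg/kg or a 5% DMSO vehicle was given by gavage every day over 8 weeks, and glomeruli were collected 18 weeks after induction, at 26 weeks of age. The groups are called here vehicle-treated nondiabetic, ATG-treated nondiabetic, vehicle-treated diabetic and ATG-treated diabetic mice. All 4 groups lack eNOS, so no mouse with an intact enzyme stands beside them.

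Notch receptors span the cell membrane and bind Jagged or Delta-like ligands on the neighbouring cell. Binding lets ADAM proteases and then gamma-secretase cut the receptor, and the freed intracellular part enters the nucleus, joins the DNA-binding protein RBPJ and a Mastermind coactivator, and switches on the Hes and Hey genes, which encode transcriptional repressors. In vessels, Notch4 and Dll4 are known as endothelial genes, Notch3 and Heyl as genes of mural cells (pericytes, smooth muscle and, in the glomerulus, mesangial cells), and Notch1 and Notch2 are used more widely. In the kidney, the pathway is known for its part in forming the nephron and has been studied in podocytes and mesangial cells of diseased glomeruli.

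Of the 9 genes, 4 were called lower with ATG in nondiabetic mice (4.51% of all listed genes were), 1 was called lower with diabetes (8.63% of all were), and 0 were called with ATG in diabetic mice (0% of all were). The 4 calls fell to 0 when only the 6 nondiabetic mice entered the fit. The sequences just upstream of the 3 receptor genes called lower with ATG in nondiabetic mice are shown here because these receptors shared that call. They are RefSeq sequences of the GRCm38.p6 mouse genome, on the strand of the gene, ending before the first annotated exon. Both strands were searched for TGGGAA, the core bound by RBPJ, for CACNAG, the N box bound by Hes proteins, and for GGAAG, an ETS core used by endothelial factors. Capitals mark the matches to CACNAG in Notch1 and Notch3 and to GGAAG in Notch4, or to their reverse complements.
Notch1, chr2:26503825-26504072, minus strand: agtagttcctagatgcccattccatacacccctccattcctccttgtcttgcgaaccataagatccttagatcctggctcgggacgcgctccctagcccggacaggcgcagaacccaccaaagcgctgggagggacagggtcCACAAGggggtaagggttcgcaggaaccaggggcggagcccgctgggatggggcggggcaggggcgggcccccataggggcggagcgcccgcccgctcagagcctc
Notch3, chr17:32166897-32167140, minus strand: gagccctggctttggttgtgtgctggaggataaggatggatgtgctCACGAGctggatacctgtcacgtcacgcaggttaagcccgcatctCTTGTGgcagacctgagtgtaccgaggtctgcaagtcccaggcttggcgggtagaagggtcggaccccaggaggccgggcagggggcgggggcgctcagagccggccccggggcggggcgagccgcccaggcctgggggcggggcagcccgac
Notch4, chr17:34564045-34564267, plus strand: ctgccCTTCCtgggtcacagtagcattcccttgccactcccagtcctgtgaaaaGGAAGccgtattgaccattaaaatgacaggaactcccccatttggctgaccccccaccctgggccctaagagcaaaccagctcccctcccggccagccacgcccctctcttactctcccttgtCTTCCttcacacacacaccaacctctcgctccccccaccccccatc

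No motif was found in all 3 windows. Notch1 held 1 match to CACNAG and Notch3 held 2, against 36.5% of 32851 RefSeq promoters with at least 1 match in a window of 248 bases and 36.0% in a window of 244. Notch4 held 3 matches to GGAAG, and Notch1 and Notch3 held none. At least 1 match to GGAAG was in 59.1% of the promoters in a window of 223 bases. TGGGAA was in none of the 3, and 19.6% to 21.5% of the promoters held it in windows of these lengths. Upstream windows of Notch2, Jag1 and Dll4 were searched in the same way, and TGGGAA was in none of them either. The other motifs were also in windows of members that were not called: Dll4 held 1 match to CACNAG and 2 to GGAAG, Notch2 held 1 of each, and Jag1, with a shorter window of 126 bases, held none. Hes1, Hey1 and Heyl were not searched.

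The genes lie on chromosomes 2 (Notch1, Jag1, Dll4), 3 (Notch2, Hey1), 4 (Heyl), 16 (Hes1) and 17 (Notch3, Notch4) of mm10. Notch3 spans chr17:32120893-32166852 and Notch4 chr17:34564295-34588543. Heyl spans chr4:123233556-123249870 and Notch1 chr2:26457902-26503822. Transcripts of other genes overlap Notch1, Notch3, Notch4 and Dll4 on the opposite strand in the GENCODE annotation, and since strand-aware counting is not given in the sources used here, reads from such partners cannot be told apart from those of the Notch genes.

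Each library held between 23.6 and 29.8 M (mega) reads on the listed genes, and every Notch gene was well above the counting limit, from 216 reads on Heyl in the mouse with the fewest to 6619 reads on Notch4 in the mouse with the most. Back on the linear scale and divided by 1 step per library, 83.4% to 84.1% of the deposited values under 2000 reads were within 0.02 of a whole number, so read numbers given here are estimates. Each prefix of the sample titles holds mice of only 1 group. The sources used here do not say what the prefixes mark, and prefix and group cannot be told apart. Mouse 1 of each nondiabetic group carries a prefix of its own with no number. The labelled tissue was checked against cell type markers. The mean log2 value of 15 podocyte markers was between 13.34 and 14.98 and was the highest of the cell type lists in 10 of the 12 mice. In ATG-treated nondiabetic mouse 1 the distal tubule and collecting duct list stood above it (13.73 against 13.34), and in ATG-treated nondiabetic mouse 2 the proximal tubule list did (13.83 against 13.78). Each result for ATG in nondiabetic mice rests on these mice. Without either of them, 2 of the 4 calls in that comparison stayed, those of Notch1 and Notch3. The mean of 12 leukocyte markers was between 7.77 and 9.09. The labels also describe a digestion and a sort by a fluorescent protein, which the study's methods do not mention.

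Compared per kb of transcript, the 9 genes spanned a wide range of levels. In vehicle-treated nondiabetic mice, Hes1 was the highest at 1265 ± 284 linear units per kb (SD, n = 3). It was followed by Notch4 at 794 ± 64.5 (SD, n = 3), Dll4 at 662 ± 41.9 (SD, n = 3) and Notch1 at 545 ± 23.0 (SD, n = 3), none of which overlapped with its neighbour in this order. Jag1 (428 ± 78.7), Notch3 (395 ± 59.8) and Hey1 (386 ± 25.8, all SD, n = 3) overlapped. Notch2 was at 244 ± 6.62 (SD, n = 3), and Heyl was the lowest at 100.3 ± 10.8 (SD, n = 3). Over the 12 mice, the mean level of Hes1 per kb stood at the 85.1 percentile of all listed genes, Notch4 at the 76.9, Notch3 at the 50.0 and Heyl at the 16.2.

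**Figure D1:**
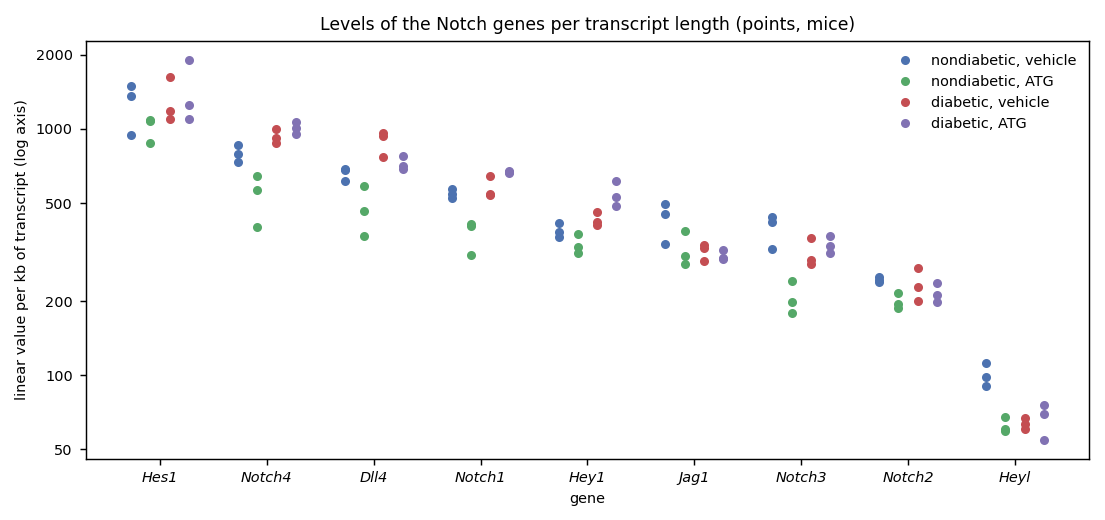
Linear value per kb of transcript on a log axis for each of the 9 genes, 1 point per mouse, coloured by group and ordered by the mean over 12 mice. Hes1 lies highest and Heyl lowest in every group, and in the ATG-treated nondiabetic mice Notch4, Dll4, Notch1 and Notch3 lie below their levels in the other groups.

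The order of the 9 was nearly the same in each group. Hes1, Notch4, Dll4 and Notch1 held the top 4 places in all 4 groups, and Heyl was last in all. The places in between moved. Notch3 was in place 6 in vehicle-treated nondiabetic mice at 395 ± 59.8 per kb and in place 7 in ATG-treated nondiabetic mice at 206 ± 32.1 (SD, n = 3), where it overlapped with Notch2 at 199 ± 14.8 (SD, n = 3). Hey1 was in place 7 in vehicle-treated nondiabetic mice and in place 5 in the other groups, reaching 543 ± 63.8 per kb (SD, n = 3) in ATG-treated diabetic mice.

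In all, 3 comparisons were made between neighbouring groups of the design: diabetic against nondiabetic mice on vehicle, ATG against vehicle in diabetic mice and ATG against vehicle in nondiabetic mice. A comparison of both ATG-treated groups and the difference between the ATG effects in diabetic and nondiabetic mice were added from the same fit. A gene was called at a limma Benjamini-Hochberg adjusted p under 0.05 over the 14096 genes, and fold changes are on the log2 scale with their standard error (SE). With diabetes on vehicle, 1 of the 9 genes was called, and it was lower, against a background of 18.9% of all listed genes called in either direction and 8.63% called lower. With ATG in diabetic mice, 0 of the 9 were called, and 0% of all listed genes (limma). At an unadjusted p under 0.05, 1 of the 9 passed there, beside 4.51% of all listed genes. With ATG in nondiabetic mice, 4 of the 9 were called, all lower, against 4.51% of all listed genes called lower and 5.22% called in either direction. None of these 4 was called when only the 6 nondiabetic mice entered the fit, or without the pair of mice that lack a number in their labels. Between the ATG-treated groups, 5 of the 9 were called higher in diabetic mice, against 25.9% of all listed genes. For the difference between the ATG effects, 1 of the 9 was called, and it was higher, against 0.546% in either direction and 0.539% higher. The median log2 fold change of the 9 was 0.04, 0.11 and -0.51 in the 3 comparisons in turn, beside 0.0075, -0.0051 and -0.0388 over all listed genes. These comparisons share groups, so their calls are not independent of each other.

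**Figure D2:**
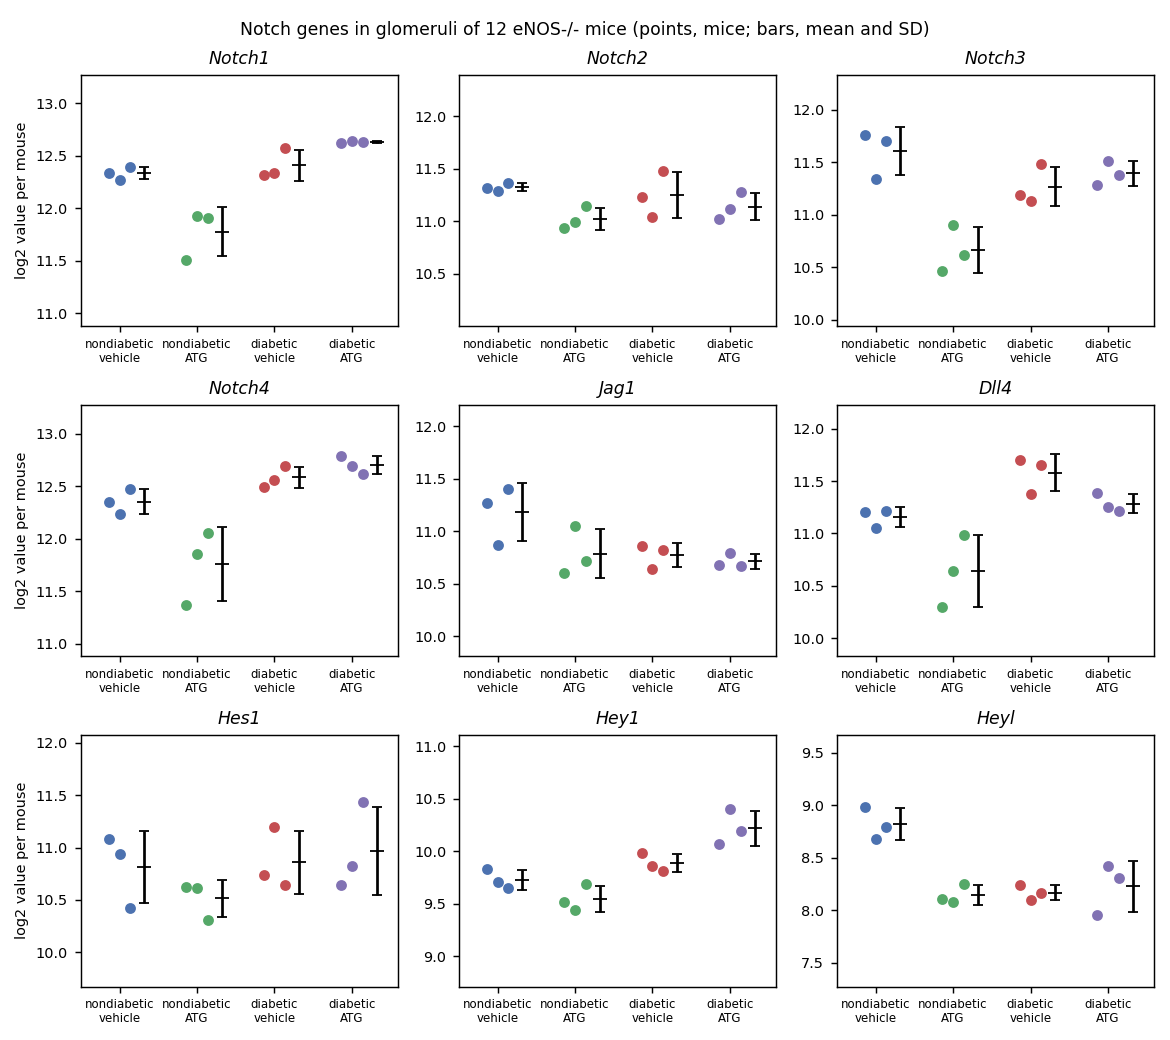
log2 value of each gene in each mouse (points) by group, with the group mean and SD beside them (bars), in 1 panel per gene with axes of equal span. Notch1, Notch3, Notch4 and Dll4 are lowest in the ATG-treated nondiabetic mice, and Heyl is highest in the vehicle-treated nondiabetic mice.

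Notch3 had the largest fold change of the 9 with ATG in nondiabetic mice. Its log2 value was 11.76, 11.34 and 11.71 in the vehicle-treated nondiabetic mice, 10.47, 10.90 and 10.62 in the ATG-treated nondiabetic mice, 11.18, 11.13 and 11.48 in the vehicle-treated diabetic mice and 11.28, 11.52 and 11.38 in the ATG-treated diabetic mice. All 3 ATG-treated nondiabetic mice were below each of the other 9. Notch3 fell by 0.94 on the log2 scale with ATG in nondiabetic mice (SE 0.142, adjusted p = 0.00835), to 0.521 times the level with vehicle. Without vehicle-treated nondiabetic mouse 3 the adjusted p was 0.0511, and it stayed under 0.05 when any other single mouse was left out. With diabetes on vehicle the groups overlapped, at a log2 fold change of -0.34 (SE 0.142, adjusted p = 0.115). With ATG in diabetic mice it was 0.13 (95% CI -0.18 to 0.44, adjusted p = 1.00).

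Notch3 was the only one of the 9 genes called for the difference between the ATG effects. Its ATG effect was 1.07 higher on the log2 scale in diabetic than in nondiabetic mice (SE 0.201, adjusted p = 0.0489). The adjusted p rose to between 0.0657 and 0.155 in 9 of the 12 fits that left out 1 mouse, and it stayed under 0.05 without vehicle-treated nondiabetic mouse 2, ATG-treated nondiabetic mouse 3 or vehicle-treated diabetic mouse 3. The call was also lost with a median-ratio scaling (adjusted p = 0.0563), with no trend in the prior variance (adjusted p = 0.0644) and with a replicate block (adjusted p = 0.0984). Without both mice that lack a title number the adjusted p was 0.223. With a tubule or endothelial marker mean as covariate it was 0.0557 or 0.545. With the mesangial and mural mean the call was lost too, at a difference of 0.20. Notch1 came next at 0.78 (SE 0.154, adjusted p = 0.0561) and passed without ATG-treated nondiabetic mouse 3 (0.85, adjusted p = 0.0189) or vehicle-treated diabetic mouse 3 (0.87, adjusted p = 0.0451). All 9 genes had a positive difference, as did 7398 of the 14096 listed genes. Without ATG-treated nondiabetic mouse 3 the count called was 5 of the 9, while that over all listed genes went from 77 to 770 of 14096.

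Notch1 and Notch4 fell with ATG in nondiabetic mice as well. The log2 value of Notch1 was 12.34, 12.27 and 12.40 in the vehicle-treated nondiabetic mice, 11.51, 11.92 and 11.90 in the ATG-treated nondiabetic mice, 12.32, 12.33 and 12.57 in the vehicle-treated diabetic mice and 12.62, 12.64 and 12.64 in the ATG-treated diabetic mice. The ATG-treated nondiabetic mice lay below all others, with mouse 1 the lowest. Notch1 fell by 0.56 on the log2 scale with ATG in nondiabetic mice (SE 0.109, adjusted p = 0.0204). Leaving out vehicle-treated nondiabetic mouse 1 or 3 gave an adjusted p of 0.0677 or 0.101. The vehicle-treated diabetic and nondiabetic mice overlapped (0.07, 95% CI -0.17 to 0.31). ATG-treated diabetic mice were all above vehicle-treated diabetic mice, by 0.23 (95% CI -0.01 to 0.46, adjusted p = 1.00), which was not called.

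Notch4, the endothelial receptor, was at 12.35, 12.24 and 12.47 in the vehicle-treated nondiabetic mice, 11.37, 11.86 and 12.06 in the ATG-treated nondiabetic mice, 12.50, 12.56 and 12.69 in the vehicle-treated diabetic mice and 12.79, 12.70 and 12.62 in the ATG-treated diabetic mice. The 3 ATG-treated nondiabetic mice were again the lowest of the 12, over a wide span. Notch4 fell by 0.59 on the log2 scale with ATG in nondiabetic mice (SE 0.145, adjusted p = 0.0437). That call stayed under 0.05 in only 3 of the 12 fits that left out 1 mouse, those without ATG-treated nondiabetic mouse 3, vehicle-treated diabetic mouse 2 or vehicle-treated diabetic mouse 3, with adjusted p from 0.00515 to 0.174 over the 12. With a median-ratio scaling it was 0.0589. With diabetes on vehicle, Notch4 was higher in every diabetic mouse than in any nondiabetic one, but its log2 fold change of 0.23 (95% CI -0.09 to 0.55, adjusted p = 0.279) was not called. Without overlap in that direction were 2 of the 9 genes, against 23.0% of all listed genes.

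Notch2 varied least of the 9, by 0.54 log2 units from the lowest to the highest mouse. It was between 11.29 and 11.37 in the vehicle-treated nondiabetic mice and between 10.94 and 11.14 in the ATG-treated nondiabetic mice, which did not overlap. Its log2 fold change with ATG in nondiabetic mice was -0.30 (SE 0.108, adjusted p = 0.106). Diabetic mice overlapped between 11.04 and 11.48 with vehicle and between 11.02 and 11.28 with ATG. Its fold change was -0.07 with diabetes (95% CI -0.31 to 0.16) and -0.11 with ATG in diabetic mice (95% CI -0.35 to 0.13).

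The ligands Dll4 and Jag1 had fold changes of opposite sign with diabetes, and neither passed the threshold. Dll4, the Delta-like ligand of endothelial cells, was at 11.20, 11.05 and 11.21 in the vehicle-treated nondiabetic mice, 10.30, 10.64 and 10.99 in the ATG-treated nondiabetic mice, 11.70, 11.38 and 11.66 in the vehicle-treated diabetic mice and 11.39, 11.25 and 11.21 in the ATG-treated diabetic mice. Every vehicle-treated diabetic mouse was above every nondiabetic mouse. The log2 fold change with diabetes was 0.43 (SE 0.149, adjusted p = 0.0671), or 1.34-fold, and it passed without ATG-treated nondiabetic mouse 1 or 3 (adjusted p = 0.0221 and 0.0213) or vehicle-treated diabetic mouse 2 (adjusted p = 0.0412). With ATG in diabetic mice it was -0.30 (95% CI -0.62 to 0.03, adjusted p = 1.00), and the groups overlapped. With ATG in nondiabetic mice it was -0.51 (SE 0.149, adjusted p = 0.0674), without overlap. Without ATG-treated nondiabetic mouse 3 it was -0.68 and passed (adjusted p = 0.00533).

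Jag1, the Jagged ligand, was at 11.27, 10.87 and 11.41 in the vehicle-treated nondiabetic mice, 10.60, 11.05 and 10.71 in the ATG-treated nondiabetic mice, 10.86, 10.64 and 10.82 in the vehicle-treated diabetic mice and 10.68, 10.79 and 10.67 in the ATG-treated diabetic mice. The vehicle-treated diabetic mice were all below the vehicle-treated nondiabetic mice, though the highest of the former, at 10.86, came close to the lowest of the latter, at 10.87. The log2 fold change was -0.41 (SE 0.143, adjusted p = 0.0667) with diabetes and -0.40 (SE 0.143, adjusted p = 0.107) with ATG in nondiabetic mice, where the groups overlapped. Without vehicle-treated nondiabetic mouse 2, which was the lowest of its group, the change with diabetes was -0.56 and passed (adjusted p = 0.0358). Both ATG-treated groups overlapped, at -0.07 (95% CI -0.39 to 0.24).

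Of the target genes, Heyl fell in 2 comparisons. Its log2 value was 8.99, 8.68 and 8.80 in the vehicle-treated nondiabetic mice, 8.10, 8.08 and 8.25 in the ATG-treated nondiabetic mice, 8.24, 8.10 and 8.16 in the vehicle-treated diabetic mice and 7.96, 8.42 and 8.30 in the ATG-treated diabetic mice. Each vehicle-treated nondiabetic mouse was above the other 9 mice, which overlapped. Heyl fell by 0.66 on the log2 scale with diabetes (SE 0.127, adjusted p = 0.00897), to 0.635 times the nondiabetic level. This call held in each fit that left out 1 mouse, with adjusted p from 0.00723 to 0.0370. Heyl fell by 0.68 with ATG in nondiabetic mice (SE 0.127, adjusted p = 0.0169). Without vehicle-treated nondiabetic mouse 1 or 3, or ATG-treated nondiabetic mouse 1 or 2, the adjusted p of that change was between 0.0621 and 0.0751. Both comparisons use the same 3 vehicle-treated nondiabetic mice. With diabetes, 2 of the 9 genes, Heyl and Jag1, were lower without overlap, against 18.7% of all listed genes, and with ATG in nondiabetic mice 6 of the 9 were, against 20.0%. With ATG in diabetic mice the log2 fold change was 0.06 (95% CI -0.22 to 0.34), and between the ATG-treated groups it was 0.08 (95% CI -0.20 to 0.36).

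Hey1 was the member with the lowest unadjusted p for ATG in diabetic mice. It was at 9.83, 9.71 and 9.65 in the vehicle-treated nondiabetic mice, 9.52, 9.44 and 9.68 in the ATG-treated nondiabetic mice, 9.98, 9.86 and 9.82 in the vehicle-treated diabetic mice and 10.07, 10.40 and 10.19 in the ATG-treated diabetic mice. The 3 ATG-treated diabetic mice were the highest of the 12. The log2 fold change with ATG in diabetic mice was 0.34 (SE 0.0993, unadjusted p = 0.00605, adjusted p = 0.917), which does not pass. Groups without overlap in this direction were seen for 2 of the 9 genes, Notch1 and Hey1, against 3.85% of all listed genes. With diabetes on vehicle, Hey1 overlapped between groups at 0.15 (95% CI -0.06 to 0.37).

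Hes1 had the largest SE of the 9, 0.229. It ranged from 10.42 to 11.08 in the vehicle-treated nondiabetic mice, from 10.31 to 10.62 in the ATG-treated nondiabetic mice, from 10.64 to 11.20 in the vehicle-treated diabetic mice and from 10.64 to 11.44 in the ATG-treated diabetic mice. No comparison of Hes1 was called. With diabetes the log2 fold change was 0.04 (95% CI -0.46 to 0.55), with ATG in diabetic mice 0.11 (95% CI -0.40 to 0.61) and with ATG in nondiabetic mice -0.30 (95% CI -0.80 to 0.20).

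**Figure D3:**
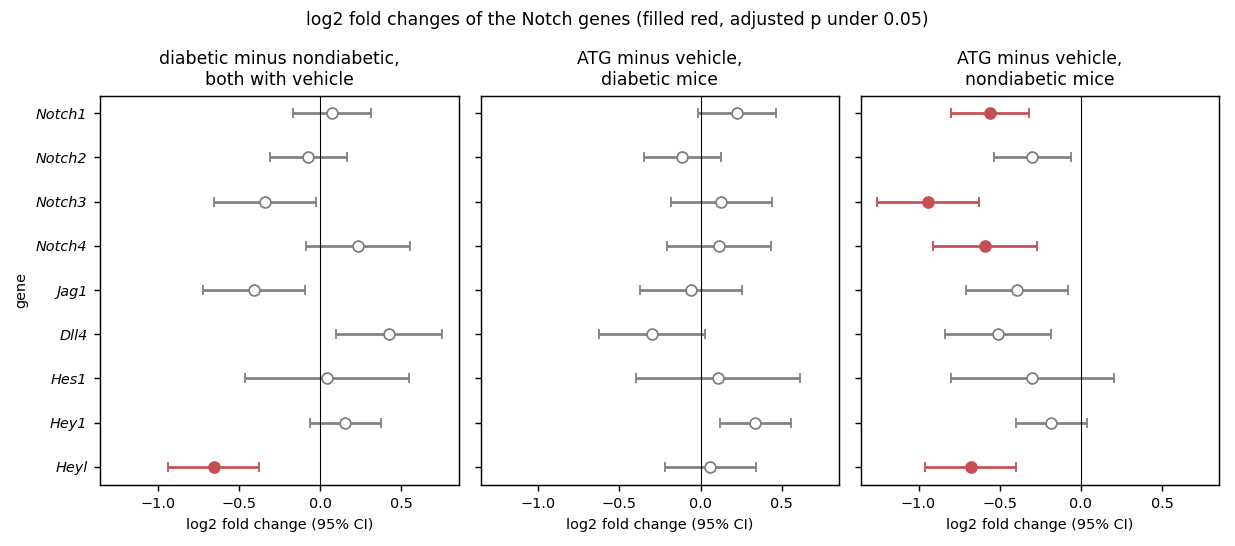
log2 fold change (points) with its 95% confidence interval (bars) for each of the 9 genes in 3 comparisons, filled red where the adjusted p was under 0.05. Heyl alone is filled for diabetes at -0.66, no gene is filled for ATG in diabetic mice, and Notch1, Notch3, Notch4 and Heyl are filled for ATG in nondiabetic mice, between -0.56 and -0.94.

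Between the ATG-treated groups, the diabetic mice had higher Notch1 (0.86, adjusted p = 0.000327), Notch3 (0.73, adjusted p = 0.00235), Notch4 (0.94, adjusted p = 0.000798), Dll4 (0.64, adjusted p = 0.00575) and Hey1 (0.67, adjusted p = 0.000624). These calls held in each fit that left out 1 mouse, and none of them held with a tubule, endothelial or mesangial and mural marker mean as covariate. The nondiabetic mice of this comparison are those in which Notch1, Notch3 and Notch4 were lower than with vehicle. Notch2, Jag1, Hes1 and Heyl were not called in it.

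The rest of the pathway was followed through a list of 58 further genes, of which 53 were in the tables. With diabetes on vehicle, 8 of the 53 were called higher and 2 lower, together 18.9% of the list, beside 18.9% of all listed genes, of which 10.2% were called higher. Leaving out 1 mouse moved the count called between 2 (without vehicle-treated nondiabetic mouse 2 or vehicle-treated diabetic mouse 1) and 13 (without ATG-treated nondiabetic mouse 1); it was 3 and 4 without vehicle-treated nondiabetic mice 1 and 3. Neurl1b, a ubiquitin ligase that helps to internalise ligands, was between 10.45 and 10.68 in the vehicle-treated nondiabetic mice and between 11.03 and 11.24 in the vehicle-treated diabetic mice, a rise of 0.59 (SE 0.0932, adjusted p = 0.00445). Numb, which inhibits Notch by promoting its endocytosis, rose by 0.42 (SE 0.100, adjusted p = 0.0180), and Dtx2, a Deltex ubiquitin ligase, by 0.31 (adjusted p = 0.0289). Dlk1, a non-canonical ligand that lacks the DSL domain of Delta and Jagged, was at 6.62, 6.76 and 7.68 without diabetes and at 8.77, 8.40 and 8.69 with it, and rose by 1.60 (SE 0.274, adjusted p = 0.00585). This was the largest rise of the list.

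Components of gamma-secretase went both ways with diabetes. Psen2, a catalytic subunit, rose by 0.38 (SE 0.0849, adjusted p = 0.0138) and was called lower by ATG in nondiabetic mice, at -0.49 (adjusted p = 0.0127). Aph1c, a subunit with the near copy Aph1b, between which reads may be split, fell by 1.01 (SE 0.266, adjusted p = 0.0260). With the tubule marker mean as covariate, Aph1c was at 0.04 (adjusted p = 0.930). In the nucleus, the acetyltransferase Kat2a and the deacetylase Hdac1 rose by 0.32 and 0.23 (adjusted p = 0.0323 and 0.0303). Ncstn, a further gamma-secretase subunit, rose by 0.21 (adjusted p = 0.0344) and the corepressor Tle2 fell by 0.35 (adjusted p = 0.0442); both are named after their values were seen. Among the other 8, which were refitted with each mouse left out, Neurl1b and Dlk1 were called in every such fit. For Psen2, Numb, Aph1c, Dtx2, Hdac1 and Kat2a, the highest adjusted p over those fits was between 0.0631 and 0.107.

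With ATG in diabetic mice, none of the 53 was called (limma), and 4 had an unadjusted p under 0.05, beside 0% called and 4.51% at an unadjusted p under 0.05 of all listed genes. The median log2 fold change of the 53 was 0.00087. With ATG in nondiabetic mice, 4 of the 53 were called, all lower, which is 7.55% of the list against 4.51% of all listed genes called lower. Besides Psen2 they included the corepressor Tle1 (-0.47, SE 0.0886, adjusted p = 0.0175) and the target gene Hey2. Hey2, a repressor of the same family as Hey1, was between 8.19 and 8.30 with vehicle and between 7.39 and 7.64 with ATG, and fell by 0.76 (SE 0.187, adjusted p = 0.0439). Of the 53, 41 had a negative fold change and 12 a positive one, at a median of -0.17 beside -0.0388 over all listed genes. Of all 14096 listed genes, 7918 had a negative one. Leaving out 1 mouse moved the count called between 0 and 20, the latter without ATG-treated nondiabetic mouse 3. It was 2 with a median-ratio scaling, and 0 with only the groups compared in the fit, without both mice that lack a title number and with each of the 3 marker means as a covariate. Tle1 was the only one of the 53 called for the difference between the ATG effects (0.70, adjusted p = 0.0455), and that call was lost in 10 of the 12 fits that left out 1 mouse (adjusted p up to 0.144), all but those without ATG-treated nondiabetic mouse 3 (0.0247) or vehicle-treated diabetic mouse 3 (0.0454). It was also lost with a replicate block (adjusted p = 0.0776), with no trend in the prior variance (0.0618), without both mice that lack a title number (0.156) and with the tubule, endothelial or mesangial and mural mean as covariate (0.0535, 0.318 and 1.00).

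Between the ATG-treated groups, 27 of the 53 were higher and 5 lower in diabetic mice, beside 25.9% and 20.8% of all listed genes. In the same comparison 15 of 16 endothelial and 8 of 13 mesangial and mural markers were called higher. Of the tubule markers, 14 of 15 proximal and 14 of 16 distal ones were called lower. With the endothelial marker mean as covariate no listed gene was called, so none of the pathway calls between these groups held. The part of cell content in the counts was not tested further. The lowest p-values were those of Psen2 (0.86, limma, adjusted p = 0.000116) and Tle1 (0.85, adjusted p = 0.000143), and Numb and Neurl1b were higher by 0.76 and 0.66. All 4 further ligands in the tables were among those higher, with Jag2 at 0.87 and Dll1 at 0.44. Of the 5 genes that add sugars to the receptor, 4 were higher, with Lfng, the lunatic fringe glycosyltransferase, at 1.40 and Mfng at 0.97. Adam10, the protease of the first cut, was higher by 0.41.

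**Figure D4:**
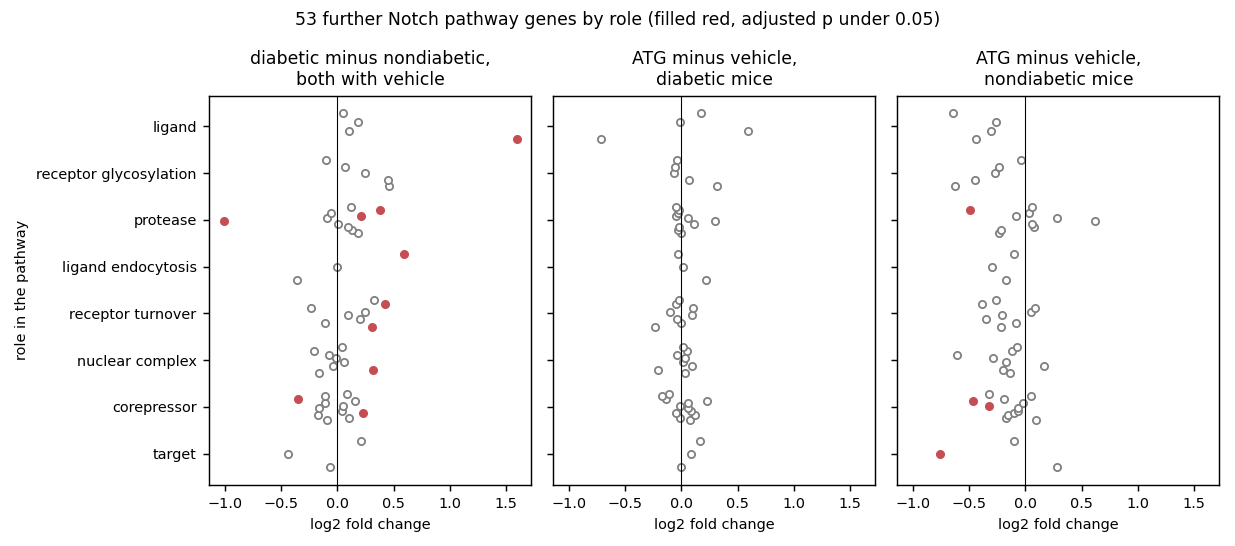
log2 fold changes of the 53 further pathway genes (points) in 3 comparisons, in rows by role, filled red where the adjusted p was under 0.05. With diabetes 10 points are filled and 8 of them lie right of 0, with ATG in diabetic mice none is filled, and with ATG in nondiabetic mice all 4 filled points lie left of 0.

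The genes whose profiles over the 12 libraries were most like those of the members differed between members. Likeness was the root mean square difference of log2 values, each gene centred on its own mean. For Notch3 the nearest of the listed genes were Cspg4, Pi15 and Cacna1c, at 0.0879 to 0.102 log2 units. For Notch4 they were Fam117b, Clic4 and Arhgap31, at 0.0665 to 0.0704, and for Notch1 Adgra2, Klf13 and Epb41l2, at 0.0664 to 0.0856. For Heyl they were Dgkb, Abcc9 and Rasl11b, at 0.0999 to 0.149, and for Jag1 Hr, Dgkb and Slit3, at 0.109 to 0.132. Dgkb was thus among the nearest of both. For Dll4 they were Cdk17, Rapgef4 and Ets2, at 0.104 to 0.108, for Notch2 Gab1, Ccdc93 and Btaf1, at 0.0602 to 0.0702, and for Hey1 Ick, Gimap9 and Cyp20a1, at 0.108 to 0.127. Hes1 had no near gene, with Zfp235, Bcdin3d and Adamts16 at 0.208 to 0.216. Within the 9, the pair most alike was Notch1 and Notch4, at 0.107.

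Markers of several cell types moved with the same groups. In bulk glomeruli, fewer cells of a type and less RNA per cell cannot be told apart. The mean log2 value of 16 endothelial markers was between 13.13 and 13.28 in the vehicle-treated nondiabetic mice and between 12.17 and 12.95 in the ATG-treated nondiabetic mice, and 7 of the 16 were called lower with ATG. That of 13 mesangial and mural markers was between 11.32 and 11.78 with vehicle and between 10.51 and 10.93 with ATG, and 7 of the 13 were called lower. Of 6 arterial endothelial markers, 4 were called lower. The mean of the podocyte markers was between 14.37 and 14.49 with vehicle and between 13.34 and 14.49 with ATG, and none of the 15 was called. In the same comparison the mean of 31 tubule markers was between 12.52 and 12.86 with vehicle and between 13.00 and 13.57 with ATG, with none of its 15 proximal and 16 distal genes called. With diabetes on vehicle, endothelial markers were between 13.50 and 13.66 (7 of 16 called higher), mesangial and mural markers between 11.02 and 11.43 (2 of 13 called lower) and tubule markers between 10.63 and 12.04 (12 of 15 proximal and 6 of 16 distal genes called lower). Marker levels in ATG-treated diabetic mice overlapped with those on vehicle in all of these lists.

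The 9 genes were also set beside these marker means, mouse by mouse. The difference between Notch3 and the mean of the mesangial and mural markers lay between -0.16 and 0.11 log2 units in all 12 mice, a range of 0.27, whereas Notch3 itself ranged over 1.30. Cspg4, the gene nearest to Notch3, is 1 of those 13 markers. Notch4 ranged over 1.41 by itself and over 0.35 after subtraction of the endothelial mean, and Dll4 over 1.40 and 0.49. Notch1 ranged over 1.14 and 0.59. Notch2 ranged over 0.54 by itself, over 1.41 after subtraction of the endothelial mean and over 0.88 after that of the mesangial and mural mean. Heyl changed little by subtraction of the mural mean, from 1.03 to 0.91, and Hey1, which ranged over 0.96, became wider at 1.10. Jag1 went from 0.81 to 1.46 with the endothelial mean and 0.86 with the mural mean, and Hes1 from 1.12 to 1.48 with the endothelial mean, and slightly wider still with the mural mean.

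**Figure D5:**
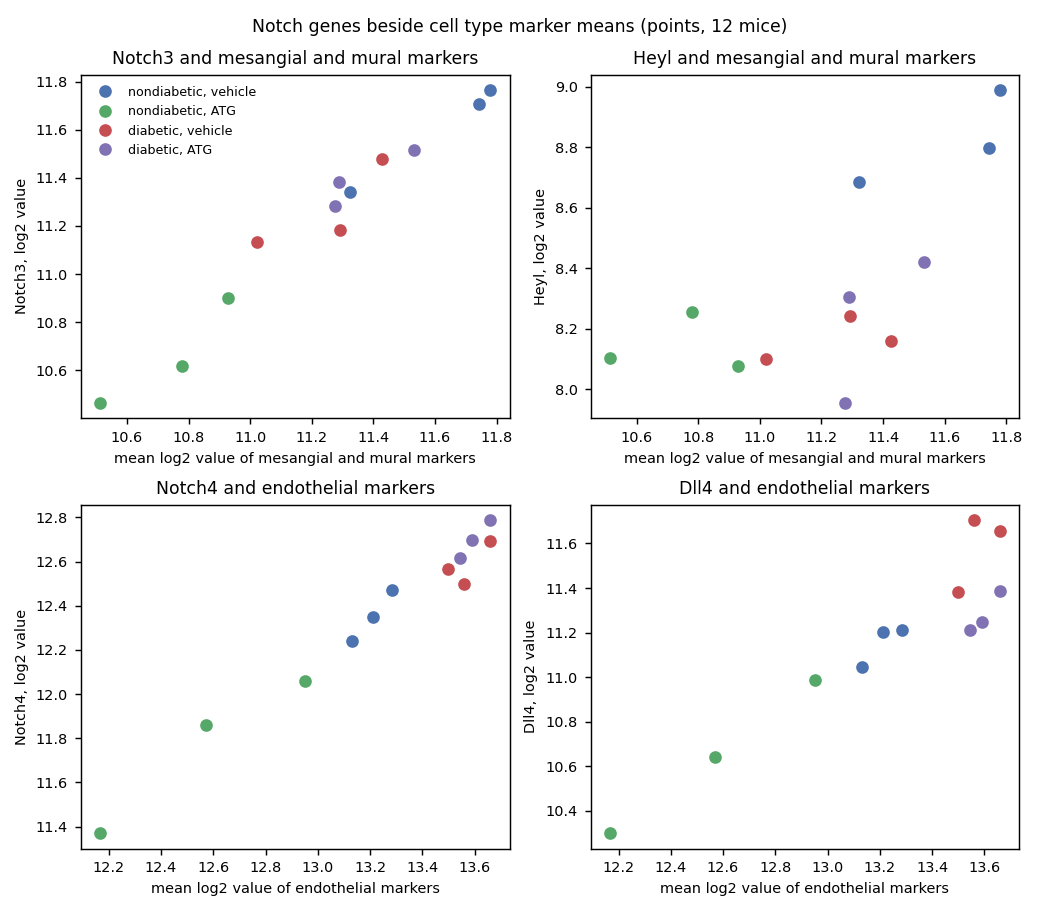
log2 values of Notch3 and Heyl against the mean log2 value of 13 mesangial and mural markers, and of Notch4 and Dll4 against that of 16 endothelial markers, 1 point per mouse, coloured by group. Notch3 and Notch4 lie along a line through all 4 groups, the vehicle-treated nondiabetic mice lie above the others for Heyl, and Dll4 lies between 11.38 and 11.70 in the vehicle-treated diabetic mice and between 11.21 and 11.39 in the ATG-treated diabetic mice at endothelial means of like range.

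With a marker mean as a covariate in the fit, at most 1 of the 4 calls for ATG in nondiabetic mice stayed. With the endothelial mean, 0 of the 9 and 0 of all 14096 listed genes were called. In that fit Notch4 was at 0.0017 and Notch1 at -0.20, whereas Notch3 was at -0.73 and Heyl at -0.59. With the mesangial and mural mean, 0 of the 9 and 0 of all listed genes were called, with Notch3 at -0.18, Notch1 at -0.14, Notch4 at -0.12 and Heyl at -0.34. With the tubule mean, 1 of the 9 and 100 of all listed genes were called. The one was Notch3 (-0.84, adjusted p = 0.0455), and Heyl at -0.64, Notch4 at -0.49 and Notch1 at -0.45 were not called. The fall of Heyl with diabetes stayed at -0.71 (adjusted p = 0.0382) with the endothelial mean and at -0.51 (adjusted p = 0.0454) with the mesangial and mural mean. With the tubule mean it was -0.73 (adjusted p = 0.0651), and Notch2 was called instead, at -0.49 (adjusted p = 0.0195). Some values grew in these fits: Hes1 with ATG in nondiabetic mice went from -0.30 to -0.77 with the endothelial mean and to -0.83 with the mesangial and mural mean, and was not called. The marker means differ between the groups, and the share of cell content in the results was not tested further.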

How the data were processed

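Poly-A RNA from isolated glomeruli of 12 mice was sequenced, 3 in each of 4 groups, and groups were taken from the descriptions in the labels. A table of log2 values for each library was deposited by the authors, in which every gene reaches 100 or more in at least 1 library once back on the linear scale. Per the values, most of the log2 values are close to whole reads multiplied by 1 factor per library and not divided by gene length, with an estimated 23.6 to 29.8 M (mega) reads on listed genes. The submitters' processing notes name the genome build mm10 and limma. The aligner, counting tool and use of strand are not given in the sources used here. The deposited start positions count from 0, and 1 was added. Levels per kb divide the linear value by the deposited transcript length.

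The log2 values were fitted with limma 3.58.1 in R 4.3.3, with all 12 mice in 1 fit of the 4 groups and a mean-variance trend, Benjamini-Hochberg adjusted over 14096 genes and called at an adjusted p under 0.05. Mice of a group are separate animals. Within a group they are numbered in accession order. The method was tested on simulated data. Alternatives were a median-ratio scaling, a linear minimum of 100 in every mouse, a pseudocount of 10, only the groups compared, no trend, limma-voom on recovered reads, a replicate block, each mouse left out, both nondiabetic mice without a title number left out, and the mean of tubule, endothelial or (chosen after seeing the data) mesangial and mural markers as a covariate. The 9 genes, the pathway list of 58 genes, the marker lists and the tests were chosen with earlier results of these data known. Named are the 9 genes, up to 8 pathway genes called per comparison by lowest p, and the 3 genes nearest to each of the 9. The values of 1 gene that this rule names are not reported here, and called pathway genes beyond the rule are given as counts. Promoter sequences are from RefSeq, which matched 6 of the 9. The podocyte list was read as a tissue check, and 8 parietal epithelial markers (mean log2 9.06 to 9.87) had 1 called higher with diabetes and none called with ATG in either group. Of 12 leukocyte markers in the tables, 6 were called higher with diabetes and none with ATG. Plots were made in Python 3.11.15 with matplotlib 3.10.9.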

Additional observations from a re-analysis of the deposited data

Results flagged for a closer look

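The ATG effect on Notch3 differed between diabetic and nondiabetic mice by 1.07 on the log2 scale (limma, SE 0.201, adjusted p = 0.0489), the only one of the 9 genes to pass the test of that difference. The call was lost in 9 of the 12 fits that left out 1 mouse (adjusted p from 0.0657 to 0.155), and with a median-ratio scaling (0.0563), no trend (0.0644) or a replicate block (0.0984). Without both mice that lack a title number it was lost too (adjusted p = 0.223). Notch3 was at 11.60 ± 0.23 with vehicle and 10.66 ± 0.22 with ATG in nondiabetic mice, and at 11.27 ± 0.19 with vehicle and 11.39 ± 0.12 with ATG in diabetic mice (SD, n = 3 each). The mean of the mesangial and mural markers moved with it. That mean was 11.62 ± 0.25 with vehicle and 10.74 ± 0.21 with ATG in nondiabetic mice, against 11.25 ± 0.21 and 11.37 ± 0.14 in diabetic mice (SD, n = 3 each), and with that mean as a covariate the difference for Notch3 was 0.20 (adjusted p = 1.00). That covariate was chosen after seeing the data, and its list includes Cspg4, the gene nearest to Notch3. With the endothelial mean the difference was 0.85 (adjusted p = 0.545) and with the tubule mean 1.02 (adjusted p = 0.0557).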

How the results depend on the processing

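How much of the spread between the 3 mice of a group comes from read depth was not tested. The calls for ATG in nondiabetic mice depend on the vehicle-treated nondiabetic mice and on which mice share the fit. Whether the mouse numbers in the titles pair the samples was not settled. Same-numbered mice correlated between -0.590 and 0.339 in their deviations from the group means, and not every pair was above 0.1. With 3 mice per group, these deviations also hold other differences between mice, so they cannot exclude a pairing. With a replicate block, the calls of the 9 genes stayed as they were for diabetes, for ATG in either kind of mouse and between the ATG-treated groups, and the Notch3 difference was lost (0 of 9 called). The block gave 1375 calls over all listed genes for diabetes and 8 for the difference between the ATG effects. Mice without a number are all nondiabetic and number 3 occurs only in diabetic mice, so only numbers 1 and 2 hold both. Under the block, Notch1 with diabetes was -0.036 and Notch2 between the ATG-treated groups -0.0019, both opposite in sign and not called. Of the named pathway genes, Numb, Aph1c, Dtx2 and Hdac1 with diabetes (adjusted p from 0.0643 to 0.100) and Tle1 for the difference (0.0776) lost their calls under the block.

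Only the groups compared in the fit gave 2 of the 9 for diabetes (Dll4 and Heyl) and 0 of the 9, as well as 0 of all genes, for ATG in nondiabetic mice, where the fit has fewer mice. The all-gene share for diabetes in that fit is not given here, and in the main fit it was 18.9%. For the difference between the ATG effects, median-ratio scaling and no trend gave 0 of the 9, and no trend gave 19 calls over all genes. Without both mice that lack a title number, 0 of the 9 and 8 of all genes were called for ATG in nondiabetic mice, 4314 of all genes between the ATG-treated groups, and 0 of the 9 and 6 of all genes for the difference.

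With the tubule mean as a covariate, all-gene calls were 957 for diabetes, 100 for ATG in nondiabetic mice, 269 between the ATG-treated groups and 44 for the difference, and 1, 0 and 0 of the 9 were called in the last 3. The endothelial mean gave 699, 0, 0 and 0 over all genes and 0 of the 9 in the last 3. The mesangial and mural mean, chosen after seeing the data, gave 2 of the 9 for diabetes, 0 of the 9 and 0 of all genes for ATG in nondiabetic mice, 1 of the 9 (Jag1) and 357 of all genes between the ATG-treated groups, and 0 and 0 for the difference. The all-gene share for diabetes with that mean is not given here.

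Signs turned under covariates for values that were not called there. With the tubule mean these were Notch1 with diabetes (-0.16), Notch2 (-0.41) and Heyl (-0.015) between the ATG-treated groups, and Aph1c with diabetes (0.037). With the endothelial mean they were Notch1 (-0.13) and Notch4 (-0.10) with diabetes, Notch4 (0.0017) and Dll4 (0.085) with ATG in nondiabetic mice, Notch2 (-0.21), Notch4 (-0.012), Dll4 (-0.32), Heyl (-0.067) and Mfng (-0.023) between the ATG-treated groups, and Notch2 (-0.025) and Dll4 (-0.41) for the difference. With the mesangial and mural mean they were Notch2 (0.052) and Hes1 (-0.18) with diabetes, Jag1 (0.33) with ATG in nondiabetic mice, Notch2 (-0.10) and Heyl (-0.16) between the ATG-treated groups, and Notch2 (-0.15), Jag1 (-0.49) and Dll4 (-0.34) for the difference. The cause was not tested.

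Leaving out each mouse in turn moved the calls among the 9 between 1 and 2 for diabetes, 0 and 6 for ATG in nondiabetic mice and 0 and 5 for the difference between the ATG effects. The all-gene calls moved between 801 (without vehicle-treated nondiabetic mouse 2) and 3357 (without ATG-treated nondiabetic mouse 3), between 60 (without vehicle-treated nondiabetic mouse 3) and 3531 (without ATG-treated nondiabetic mouse 3), and between 6 and 770 (without ATG-treated nondiabetic mouse 3). Small fold changes crossed 0 on leaving out 1 mouse. With diabetes, Notch1 ranged from -0.0103 to 0.12, Notch2 from -0.19 to 0.032 and Hes1 from -0.15 to 0.18. With ATG in diabetic mice, Notch2 ranged from -0.22 to 0.0046, Hes1 from -0.13 to 0.28 and Heyl from -0.037 to 0.20. Between the ATG-treated groups, Jag1 ranged from -0.17 to 0.058 and Heyl from -0.0143 to 0.22.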
